A study of Arabidopsis thaliana with 12 samples.

Results

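The genes described here are those whose probes ranked lower in every sample of the Arabidopsis thaliana pete1 mutant than in any wild-type sample. All probes were ranked by intensity within each sample, with ties averaged, and a probe with exactly 1 gene was kept where its highest rank in the 6 pete1 samples lay below its lowest rank in the 6 WT samples. Of 692 probes with 1 gene, 46 met this order (6.65%), and 6 of these were left out by name, which left 40 members. The opposite order, higher in every pete1 sample, was met by 63 of the 692 (9.10%). Among all 3439 probes, 208 ranked lower (6.05%) and 353 ranked higher (10.3%) in every pete1 sample. The order of the 2 genotypes is therefore what chose the members, and their differences between WT and pete1 are given below as a description, without a test.

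The study measured total RNA on expression arrays in 12 samples. The 6 WT samples came from ecotype Columbia 0, and the 6 pete1 samples from a mutant in that ecotype that lacks 1 isoform of plastocyanin. Both genotypes were grown on MS media, and the samples are numbered 1 to 6 within each genotype. The labels name no tissue, age, allele or number of plants, nor whether samples were separate cultures, so the spread between samples may be technical. In bulk RNA, fewer cells of a type and less RNA per cell cannot be told apart.

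Plastocyanin is a small copper protein of the thylakoid lumen that carries electrons from the cytochrome b6f complex to photosystem I. Electron flow through it feeds the reactions that make reducing power for carbon fixation, and changes in the redox state of the chloroplast are known to alter the expression of nuclear genes. No probe of PETE1 itself entered the comparisons, which leaves the genotypes as the labels state them. Of 8 genes chosen to mark green tissue, 3 had a probe of their own. The antenna gene LHB1B2 was at or above rank 98.4 of 100 in every sample, whereas SBPASE and PRK, both enzymes of the Calvin cycle, went as low as rank 45.6 and rank 35.0. In the deposited intensities, LHB1B2 and PRK had higher means in pete1 and SBPASE a lower one. The difference of SBPASE was smaller than its SD in either genotype. Lower intensity in pete1 was common, with a median ratio of WT to pete1 of 1.68 over 595 probes with 1 gene and no 0. LHB1B2 had a mean of 10.1 in the WT samples (SD 2.30, n = 6) and of 31.1 in those of pete1 (SD 3.62). PRK had means of 0.565 ± 0.119 and 1.14 ± 0.273 in the same order, and SBPASE of 0.991 ± 0.313 and 0.703 ± 0.354. Their part in the order of the members was not tested. None of 3 root genes or 4 flower and seed genes had a probe of its own.

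Ranks were used because the deposited intensities differed in their overall level. Median intensity over all probes was between 0.485 and 0.627 in the WT samples and between 0.279 and 0.331 in the pete1 samples, although the means lay between 0.917 and 1.07 in all 12. Neighbouring sample numbers of 1 genotype, namely 1 and 2, 3 and 4, or 5 and 6, gave similar profiles, with Spearman correlations of 0.955 to 0.980 across probes against 0.849 to 0.901 for other samples of a genotype. A rank of 100 below stands for the brightest of the 3439 probes in a sample and a rank near 0 for the dimmest.

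The samples pete1 1 and pete1 2 stood apart over 1 range of the array's probe numbers. When the probes were taken in ranges of 96 numbers, both samples lay over 10 rank points above the WT sample of equal number in each range from 1441 to 2304 and in no other. For the 612 probes of these ranges, the median intensity was 0.656 in pete1 1 and 0.772 in pete1 2, against 0.284 to 0.302 in the other 4 pete1 samples and 0.429 to 0.562 in WT. The other 2827 probes had medians of 0.243 and 0.250 in pete1 1 and 2, below the 0.314 to 0.338 of pete1 3 to 6. In ranks, the median probe of that range lay 15.9 and 17.9 points higher in pete1 than in WT in the samples numbered 1 and 2, and between -0.49 and 1.26 points in those numbered 3 to 6. Only 3 of the 612 probes (0.490%) ranked lower in every pete1 sample, against 205 of the other 2827 (7.25%). The range held 120 of the 692 probes with 1 gene and none of the 40 members. What a probe number stands for is not given in the sources used here, and the part of this shift in the choice of members was not tested beyond the values that follow.

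**Figure D1:**
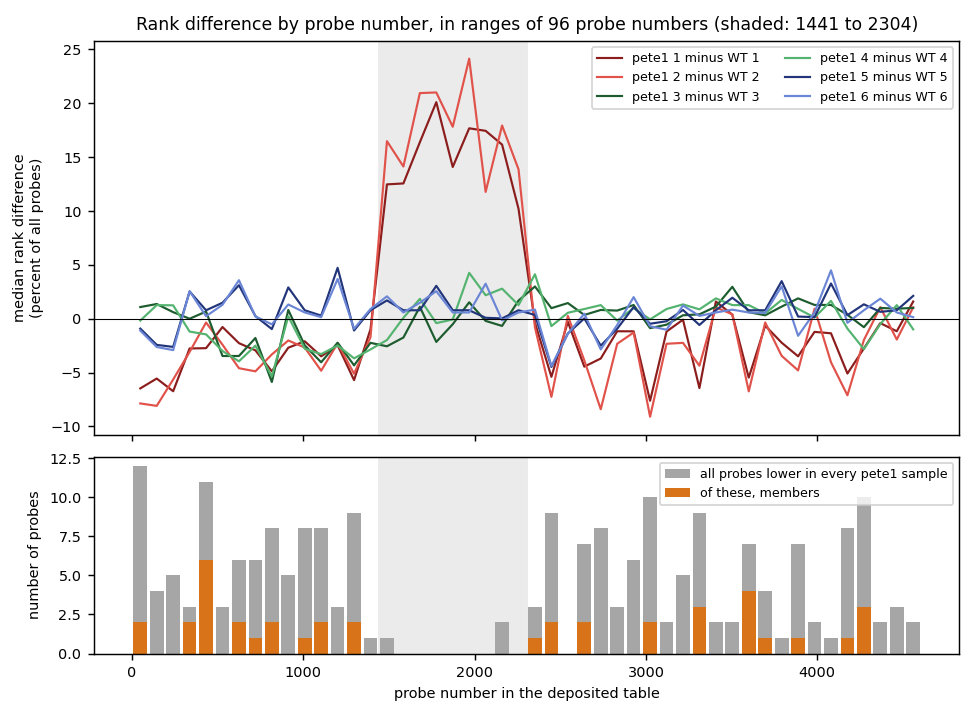
Top, the median rank difference of equal-numbered samples (pete1 minus WT, in percent of all probes) for successive ranges of 96 probe numbers, 1 line for each of the 6 sample numbers. Bottom, the number of probes in each range that ranked lower in every pete1 sample (grey) and of members among them (orange). Sample numbers 1 and 2 rise over the shaded range from 1441 to 2304, where no member lies.

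The order of the members held up in part when probes were compared only with others of nearby number, an alternative chosen after seeing the data. With ranks taken within ranges of 384 probe numbers, 28 of the 40 members still ranked lower in every pete1 sample, against 48 of 692 probes with 1 gene (6.94%). With probes 1441 to 2304 left out and the rest ranked again, 32 members did so, against 37 of 572 probes (6.47%). Without pete1 1 and 2, the rule is met by more probes, 68 of 692 (9.83%), the 40 members among them by construction. The median difference in mean rank over the members was -15.62 points with all samples, -14.81 without pete1 1 and 2 and -14.21 with ranks within ranges of 384 probe numbers, against -0.276 points for all probes with 1 gene.

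Samples left out of the choice gave the order in samples that the choice had not used. When number 1 was left out of both genotypes, 51 probes with 1 gene met the rule in the remaining samples, and 50 of these (98.0%) also ranked lower in pete1 1 than in WT 1, against 52.6% of all 692 probes. Leaving out number 2, 3, 4, 5 or 6 gave 93.4% to 97.9%, against 47.0% to 53.6% of all 692. In each of these 6 rounds the sample left out had a close likeness, its consecutive number, among those that chose the probes. Leaving out both consecutive numbers set a stricter question, since both pete1 samples had to rank below both WT samples, and the shares over all 692 probes were lower too. Without numbers 1 and 2, 90 probes met the rule in the other samples, and in 56 of them (62.2%) both pete1 samples left out ranked below both WT samples left out, against 43.5% of the 692. Without numbers 3 and 4 this was 75 of 113 (66.4%), against 37.1%, and without numbers 5 and 6 it was 76 of 114 (66.7%), against 34.0%.

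The members ran from moderately dim to among the brightest probes, the lowest mean rank in WT being 20.6, for AT4G18540. By mean rank in WT, 1 member lay at or below 25, 12 lay above 25 and up to 50, 13 above 50 and up to 75, and 14 above 75, whereas the 692 probes with 1 gene split into 167, 209, 173 and 143. The difference in mean rank ran from -0.242 points for AT2G27290, near the ceiling of the scale, to -39.95 for AT2G46190. The gap between the lowest WT rank and the highest pete1 rank had a median of 2.59 points and ran from 0.0582 to 17.9. In the deposited intensities, 38 of the 40 members also showed no overlap between the genotypes, against 35.4% of the 692 probes with 1 gene. The ratio of the WT mean to the pete1 mean had a median of 2.70 over the 38 members with no value of 0, and a median of 1.68 over the 595 probes with 1 gene and no 0, so that a ratio above 1 was common among the other probes too. With pete1 1 and 2 left out, the members' median ratio was 2.53.

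**Figure D2:**
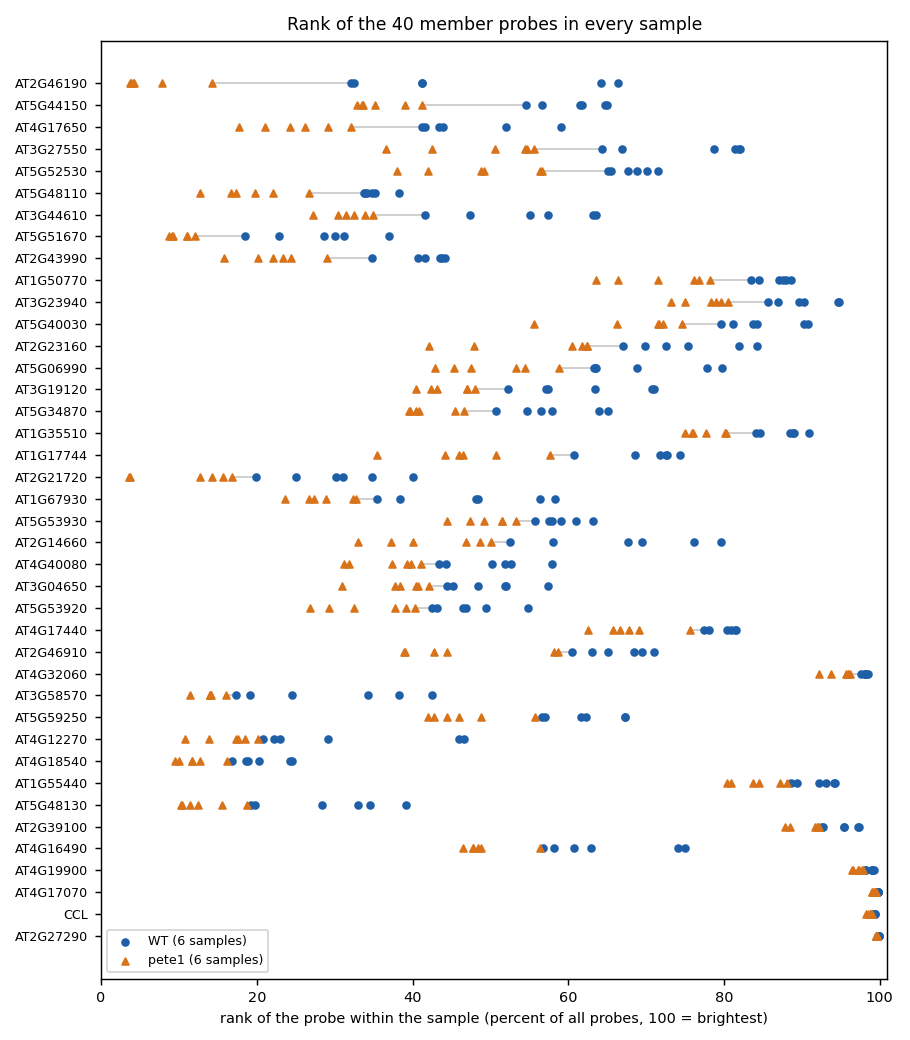
Rank of each of the 40 members in every sample (percent of all 3439 probes, 100 the brightest), with 6 WT samples as circles and 6 pete1 samples as triangles. Genes are ordered by the gap between the genotypes, drawn as a grey line, which runs from 17.9 points at the top to 0.0582 at the bottom.

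The tables used here pair the members with loci and give a symbol to 1 of them, CCL. The roles stated below are background on each locus and were not read from these data. The 40 are a mixed set by role, and their grouping was made after the members were known: 8 belong to metabolism, transport and organelles, 7 to RNA and protein handling, 8 to signalling, membrane traffic and sugar transfer, 1 is a clock-regulated transcript, and 16 are given no role here. Among members with no 0, the median ratio of WT to pete1 was 2.68 in the first group, 2.69 in the second, 2.63 in the third and 2.78 in the members without a role. These medians lie close to each other.

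Among genes of metabolism, AT3G23940 encodes dihydroxyacid dehydratase, an enzyme of branched-chain amino acid synthesis in the plastid. Its intensity in WT had a lowest value of 1.36, a median of 1.85 and a highest of 2.68, and in pete1 a lowest of 0.608, a median of 0.765 and a highest of 0.862. The WT samples were spread by number, with 5 and 6 at 2.61 and 2.68 and with 3 and 4 at 1.36 and 1.47, and the lowest of them was above every pete1 sample. The means were 1.97 ± 0.559 (SD, n = 6) and 0.751 ± 0.0959, a ratio of 2.62. The log2 fold change after quantile normalisation was -1.01, with an SE of 0.205, or 0.217 with consecutive numbers as a random block. That block widened the SE more in some other members, from 0.175 to 0.452 for AT5G48110 and from 0.225 to 0.671 for AT4G18540.

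AT4G17650 encodes a small lipid-binding protein related to the yeast protein that handles coenzyme Q in mitochondria. Its WT values were 0.400 at the lowest, 0.522 at the median and 0.630 at the highest, and its pete1 values 0.0769, 0.129 and 0.191. The genotypes did not overlap, and WT was 3.78 times as high in the mean. AT5G48110, a member of the terpene synthase family, was dimmer, with WT values of 0.329, 0.380 and 0.434 and pete1 values of 0.0443, 0.0944 and 0.125 in the same order. All 6 WT samples were close together, at a coefficient of variation of 12.2%, and lay above all 6 pete1 samples. This gene no longer met the rule when it was ranked only among probes of nearby number.

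AT4G32060 encodes a calcium-binding protein of the mitochondrial calcium uptake system. It was bright, with 4.47 at the lowest, 6.11 at the median and 6.98 at the highest in WT, and with 2.05, 3.26 and 3.79 in pete1. Numbers 1 and 2 were the lowest in both genotypes, at 4.95 and 4.47 in WT and at 2.40 and 2.05 in pete1. WT was 1.93 times as high in the mean, against a median ratio of 1.68 over probes with 1 gene and no 0. The mean rank of AT4G32060 was 98.1 in WT and 94.96 in pete1, near the ceiling of the scale. After centring each sample on its median, its log2 fold change was -0.15, with an SE of 0.197, and the genotypes overlapped.

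The other 4 genes of this group had WT means between 0.340 and 0.8001. AT4G12270, of the copper amine oxidase family, had a mean of 0.340 ± 0.113 (SD, n = 6) in WT and 0.0768 ± 0.0225 in pete1, the largest ratio of the group at 4.43. Its gap in rank was only 0.727 points, with its WT samples 1 to 4 at 0.220 to 0.302 and WT 5 and 6 at 0.480 and 0.485. AT2G46910, a fibrillin of plastid lipid bodies and membranes, was at 0.8001 ± 0.116 and 0.293 ± 0.0900. AT3G04650, an FAD-binding oxidoreductase, was at 0.550 ± 0.0793 and 0.218 ± 0.0322. AT5G59250, a sugar transporter of the major facilitator superfamily, was at 0.725 ± 0.0412 and 0.282 ± 0.0503. The last of these varied least among the WT samples of all members, with a coefficient of variation of 5.68%.

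For AT2G46910, a second probe lists it together with 2 other genes. That probe was at 0.337 ± 0.0729 in WT and 0.260 ± 0.0789 in pete1, and its mean rank went up, from 31.0 to 43.1. The probe for AT2G46910 alone and the probe shared between genes thus went opposite ways in rank. Of the 5 members that are also listed for such a shared probe, none had a shared probe that met the rule. Only 208 of all 3439 probes (6.05%) met it, so 5 probes are too few to be set apart from that share. The mean rank was higher in pete1 for 4 of these shared probes and lower for 1, that of AT4G17440, at 72.6 in WT and 55.3 in pete1. Of the 692 probes with 1 gene, 52.7% had a lower mean rank in pete1. The shared probes of AT5G06990 and AT3G58570 are numbered between 1441 and 2304, the range in which pete1 1 and 2 were bright.

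Among genes of RNA and protein handling, AT3G27550 encodes a protein with a CRM domain, an RNA-binding fold known from splicing in plant organelles. In WT its values were 0.711 at the lowest, 1.17 at the median and 1.31 at the highest, and its pete1 values were 0.225, 0.309 and 0.373. WT 3 and 4 were the lowest of their genotype, and pete1 3 and 4 the highest of theirs, yet the ranks were 8.75 points apart. The means were 1.05 ± 0.252 (SD, n = 6) and 0.307 ± 0.0574, a ratio of 3.43.

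AT5G40030 encodes a pentatricopeptide repeat protein, of a large family that binds organelle RNA. Its values in WT were 1.10, 1.26 and 1.99 (lowest, median and highest) and in pete1 0.347, 0.602 and 0.695. WT 1 and 2 were high, at 1.88 and 1.99, and pete1 1 and 2 were low, at 0.470 and 0.347, so that the samples numbered 1 and 2 differed most. From numbers 3 to 6 alone the means were 1.19 ± 0.0818 (SD, n = 4) in WT and 0.635 ± 0.0444 in pete1, a ratio of 1.88 against 2.57 over all numbers.

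AT3G58570, a DEAD-box RNA helicase, had a mean of 0.324 ± 0.118 (SD, n = 6) in WT and 0.0614 ± 0.0192 in pete1, a ratio of 5.29. AT5G53920, related to methyltransferases of a ribosomal protein, was at 0.515 ± 0.0761 and 0.191 ± 0.0462. AT2G23160, an F-box protein, of the family that selects targets for ubiquitination, was at 1.03 ± 0.280 and 0.382 ± 0.107. The genotypes did not overlap in intensity for any of these 3, nor for 35.4% of the 692 probes with 1 gene.

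AT2G39100, a protein with a RING/U-box domain, a fold found in ubiquitin ligases, was bright. Its WT values were 2.21 at the lowest, 2.92 at the median and 4.57 at the highest, and its pete1 values 1.37, 1.85 and 1.89. The WT samples fell into the 3 consecutive pairs, at 2.21 and 2.22, at 4.31 and 4.57 and at 2.93 and 2.91. The distance between these WT pairs was larger than that between WT 1 and 2 and the brightest pete1 samples. After centring each sample on its median, the log2 fold change of AT2G39100 was -0.05, with an SE of 0.248, and the genotypes overlapped.

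AT4G17070, related to peptidyl-prolyl isomerases, which help proteins to fold, was among the brightest probes. It had WT values of 24.5, 27.9 and 29.8 (lowest, median and highest) and pete1 values of 11.6, 18.5 and 23.1. All 6 WT samples lay within a narrow band, and the pete1 samples below it were spread more widely, from pete1 1 and 2 at 11.6 and 13.1 up to pete1 5 at 23.1. Its means were 27.7 ± 1.91 (SD, n = 6) and 17.6 ± 4.41, a ratio of 1.58, and 1.38 without pete1 1 and 2.

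In the group of signalling, membrane traffic and sugar transfer, AT3G44610 encodes a protein kinase of the AGC family. Values in WT were 0.400 at the lowest, 0.596 at the median and 0.842 at the highest, and its pete1 values 0.126, 0.182 and 0.212. WT 1 and 2 were the highest and WT 3 and 4 the lowest, and even the latter, at 0.458 and 0.400, lay above the brightest pete1 sample. The means were 0.619 ± 0.183 (SD, n = 6) and 0.174 ± 0.0318, a ratio of 3.55.

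AT5G48130 belongs to the NPH3 family, named after a protein of phototropic signalling. With a mean of 0.321 ± 0.1005 (SD, n = 6) in WT and 0.0535 ± 0.0337 in pete1, it had the largest ratio of this group, 5.99. Its pete1 median, 0.0425, lay below 0.0514, the 10th percentile of all intensities. The log2 fold change was -2.75 as deposited, -1.39 after quantile normalisation and -0.95 with that percentile as the offset, so the size of the fold is uncertain. WT 3 and 4, at 0.197 and 0.191, were the nearest to pete1 6, at 0.103, and the gap in rank was 0.582 points. The gene AT5G48130 lies 2 places along the chromosome from the terpene synthase gene AT5G48110, also a member.

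AT4G19900, a glycosyltransferase, had WT values of 6.41 at the lowest, 9.50 at the median and 10.3 at the highest, and pete1 values of 4.15, 5.53 and 6.33. Its genotypes nearly touched, with WT 5 and 6 at 6.41 and 6.57 and pete1 5 and 6 at 6.33 and 6.25. In the samples numbered 5 and 6 the difference was thus a small part of that in numbers 1 and 2, where WT was at 9.82 and 9.25 and pete1 at 4.15 and 4.22.

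Of the rest of this group, AT1G35510, an O-fucosyltransferase, was at 1.59 ± 0.250 (SD, n = 6) in WT and 0.743 ± 0.0734 in pete1. AT1G55440, with a cysteine- and histidine-rich C1 domain, was at 2.12 ± 0.376 and 1.03 ± 0.174. AT4G16490, an armadillo repeat protein, was at 0.786 ± 0.236 and 0.304 ± 0.0477. These 3 had ratios of 2.15, 2.06 and 2.59. AT4G40080, an adaptor of clathrin-coated vesicles, was at 0.552 ± 0.0858 and 0.206 ± 0.0240, and AT1G67930, a subunit of a complex that tethers vesicles at the Golgi, was at 0.522 ± 0.130 and 0.154 ± 0.0242.

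CCL (AT3G26740) encodes a transcript known in Arabidopsis for control by the circadian clock and for rapid decay. It had WT values of 8.82 at the lowest, 12.1 at the median and 15.8 at the highest, and pete1 values of 7.85, 11.96 and 13.0. The intensities overlapped widely, and the medians were nearly equal. CCL met the rule only in ranks, with a lowest WT rank of 99.04 and a highest pete1 rank of 98.98. Its means were 12.3 ± 2.86 (SD, n = 6) and 11.02 ± 2.26, a ratio of 1.12, and without pete1 1 and 2 the ratio was 0.993. CCL is thus a member by its place among the few brightest probes, without a separation in intensity.

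The same holds for AT2G27290, the brightest member. Its WT values were 28.5 at the lowest, 38.02 at the median and 45.3 at the highest, and its pete1 values 21.5, 31.2 and 35.0. The intensities overlapped, since WT 5 and 6 lay at 28.5 while pete1 3 to 6 lay between 30.8 and 35.0. From numbers 3 to 6 alone, the means were 33.3 ± 5.51 (SD, n = 4) in WT and 32.9 ± 2.01 in pete1.

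**Figure D3:**
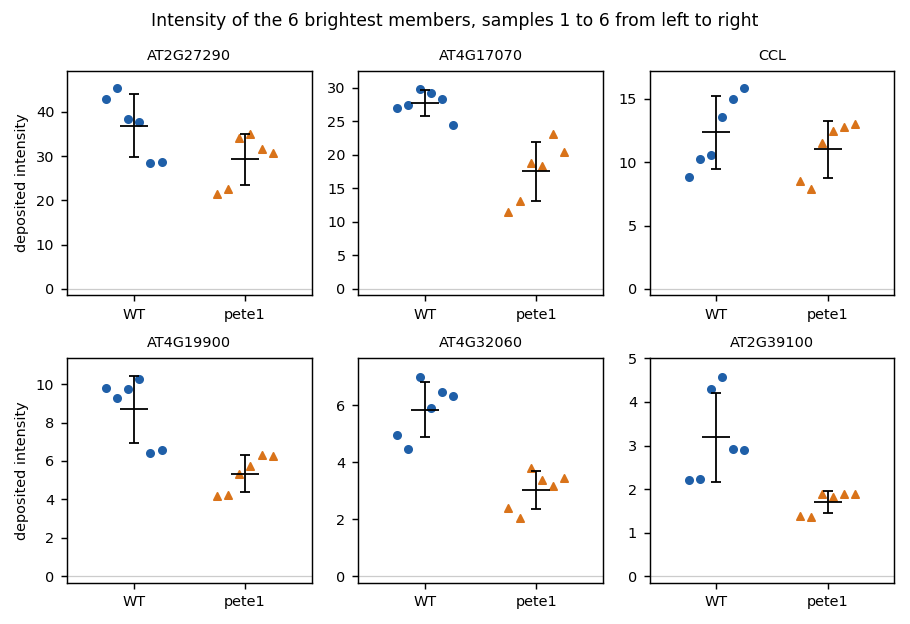
Deposited intensity of the 6 brightest members in every sample (points from left to right are samples 1 to 6), with the mean and SD of each genotype as black bars. CCL and AT2G27290 overlap between the genotypes, and in all 6 panels pete1 1 and 2 are the lowest pete1 samples.

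Among the members without a role given here, AT2G46190 had the largest gap in rank, 17.9 points. It was at 0.845, 0.896, 0.314, 0.396, 0.348 and 0.426 in WT 1 to 6. In pete1 it was listed at 0 in samples 1, 3, 4 and 5, at 0.0617 in pete1 2 and at 0.0112 in pete1 6. No pete1 sample came near the lowest WT sample, and no fold is given because of the zeros. AT2G21720 was the other member with zeros. It was between 0.200 and 0.487 in WT, between 0.0446 and 0.0730 in pete1 1 to 4, and listed at 0 in pete1 5 and 6.

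AT5G44150 had the second largest gap, 13.5 points. In WT it was at 0.577 at the lowest, 0.686 at the median and 0.871 at the highest, and its pete1 values 0.163, 0.205 and 0.222. The pete1 samples were close together, at a coefficient of variation of 11.2%, and WT was 3.50 times as high in the mean. The log2 fold change after quantile normalisation was -0.97, with an SE of 0.0921 over 6 samples a genotype and of 0.189 with consecutive numbers as a random block. Without pete1 1 and 2 the ratio was 3.42.

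AT5G51670 had the largest ratio among members with no 0, 10.7. Its WT values were 0.212, 0.290 and 0.455 (lowest, median and highest) and its pete1 values 0.00534, 0.0256 and 0.0619. The pete1 values ranged widely in proportion, with pete1 1 and 4 the lowest, and without pete1 1 and 2 the ratio was 8.46. All its pete1 samples but pete1 5 lay below 0.0514, the 10th percentile of all intensities, and the log2 fold change was -3.86 as deposited, -2.08 after quantile normalisation and -1.26 with that percentile as the offset, so the size of the fold is uncertain. AT2G43990 had WT values of 0.365, 0.423 and 0.535 and pete1 values of 0.0847, 0.115 and 0.140. Both genotypes were tight, and the ratio was 3.89, or 4.03 without pete1 1 and 2.

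AT5G52530 had WT values of 0.737 at the lowest, 0.847 at the median and 0.947 at the highest, and pete1 values of 0.215, 0.293 and 0.396. Its ratio was 2.78. AT1G50770 had WT values of 1.26, 1.51 and 1.71 and pete1 values of 0.427, 0.644 and 0.780. For both genes WT 3 and 4 were the lowest WT samples, and pete1 5 and 6 the highest pete1 samples.

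**Figure D4:**
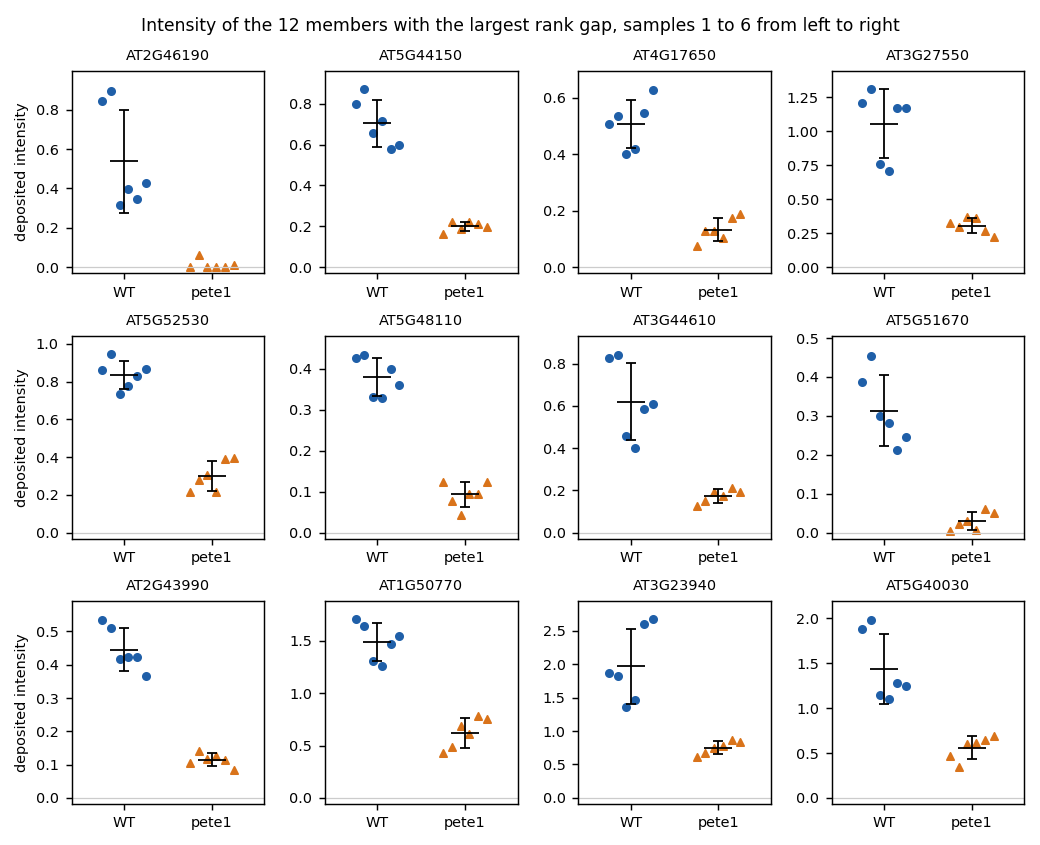
Deposited intensity of the 12 members with the largest gap in rank, in every sample (points from left to right are samples 1 to 6), with the mean and SD of each genotype as black bars except where a value is 0. In each panel all 6 WT samples lie above all 6 pete1 samples, as they did for 35.4% of the 692 probes with 1 gene. Neighbouring points in a genotype (1 and 2, 3 and 4, 5 and 6) are often close.

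The remaining members without a role had ratios of 2.15 to 5.17. AT4G17440 was at 1.15 ± 0.0843 (SD, n = 6) in WT and 0.532 ± 0.0824 in pete1. AT5G06990 was at 0.876 ± 0.148 and 0.315 ± 0.0689, and AT1G17744 at 0.885 ± 0.159 and 0.285 ± 0.0675. These 3 did not overlap in intensity, and neither did the 5 that follow. AT3G19120 was at 0.733 ± 0.209 and 0.264 ± 0.0388, AT5G34870 at 0.659 ± 0.0927 and 0.244 ± 0.0398, and AT2G14660 at 0.844 ± 0.281 and 0.252 ± 0.0502. AT5G53930 was at 0.671 ± 0.0931 and 0.306 ± 0.0387, and AT4G18540, the dimmest member in WT, at 0.233 ± 0.0465 and 0.0451 ± 0.0249. The pete1 mean of AT4G18540 lay below 0.0514, the 10th percentile of all intensities. Its log2 fold change was -2.51 as deposited, -1.11 after quantile normalisation and -0.68 with that percentile as the offset, so its size is uncertain.

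AT5G53930 and the methyltransferase-like gene AT5G53920 are next to each other in the gene order of the TAIR10.1 assembly. Together with AT5G48110 and AT5G48130, they make 2 pairs of members that lie within 2 places of each other, of 44 such pairs among all measured genes with a probe of their own. With ranks within ranges of 384 probe numbers, AT5G53930, AT5G53920 and AT5G48110 no longer met the rule, so neither pair kept both genes. AT5G53930 and AT5G53920 also failed it without probes 1441 to 2304. In 3 further pairs only 1 gene was a member, and all 3 partners had a lower mean rank in pete1, as did 52.7% of the probes with 1 gene. The difference, pete1 minus WT, was -11.1 points for AT3G26730 beside CCL, -9.31 for AT1G50750 beside AT1G50770 and -5.41 for AT5G40050 beside AT5G40030. The genotypes overlapped for these 3 partners, and the probe of AT1G50750 lies in the range from 1441 to 2304. By chromosome, 5, 8, 7, 9 and 11 members came from chromosomes 1 to 5, against 173, 124, 130, 120 and 143 of the probes with 1 gene.

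Within a genotype, deposited intensities differed by sample number, in many members as in many of all probes with 1 gene. In 22 of 40 members (55.0%), WT 1 and 2 were both above WT 3 to 6, as in 43.6% of the 692 probes with 1 gene. In 17 members (42.5%), pete1 1 and 2 were both below pete1 3 to 6, against 33.8%. Over the members, the median intensity was 0.855 and 0.883 in WT 1 and 2 and 0.627 to 0.707 in WT 3 to 6. It was 0.221 and 0.232 in pete1 1 and 2 and 0.260 to 0.301 in pete1 3 to 6. The ratio of these medians, WT over pete1, was 3.87 and 3.81 in numbers 1 and 2 and 2.08 to 2.50 in numbers 3 to 6. The median of all probes followed the same order, with ratios of 2.25 and 2.15 in numbers 1 and 2 and of 1.53 to 1.601 in the others. The median coefficient of variation was 18.5% in WT and 20.2% in pete1, against 23.9% and 31.8% over the 692 probes. The rule itself favours probes with little spread within a genotype. Fewer members were dim, with 1 of 40 at or below a mean WT rank of 25, against 167 of 692. Members were not compared with probes of equal brightness, so the lower variation is not read as a trait of the members.

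At the limit of the rule, the members with the smallest gap were AT4G17070, at 0.145 points, and CCL and AT2G27290, both at 0.0582 points. Just outside it lay AT2G47680, whose lowest WT rank equalled its highest pete1 rank, and AT3G09850 and AT3G61540, which overlapped by 0.0291 points each. AT2G47680 was at 0.482 ± 0.158 (SD, n = 6) in WT and 0.0969 ± 0.0478 in pete1.

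The size and, for the brightest members, the sign of a difference followed the scaling. In the log2 intensities as deposited, all 40 members were lower in pete1, with a median log2 fold change of -1.45 against -0.73 over all 3439 probes. After quantile normalisation the medians were -0.86 and -0.01. After centring each sample on its median they were -0.64 and 0.08, and 36 of the 40 were lower. The 4 exceptions were the 4 brightest members in WT. They had log2 fold changes of 0.65 (CCL), 0.48 (AT2G27290), 0.12 (AT4G19900) and 0.11 (AT4G17070) there, against -0.60, -0.83, -1.06 and -1.13 after quantile normalisation. With median-centred values, 29 members showed no overlap between the genotypes, against 6.65% of the 692 probes. Of the 12 members with the largest gap, 11 kept the order under each of 4 alternatives (the deposited intensities, the median-centred values, ranks within ranges of 384 probe numbers, and ranks without probes 1441 to 2304), and so did 21 of all 40. Among these 4, AT4G16490 kept it only in the deposited intensities. AT5G59250, AT4G17440, AT1G55440, AT4G17070, CCL and AT2G27290 lost it both after median centring and within ranges of 384 probe numbers.

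**Figure D5:**
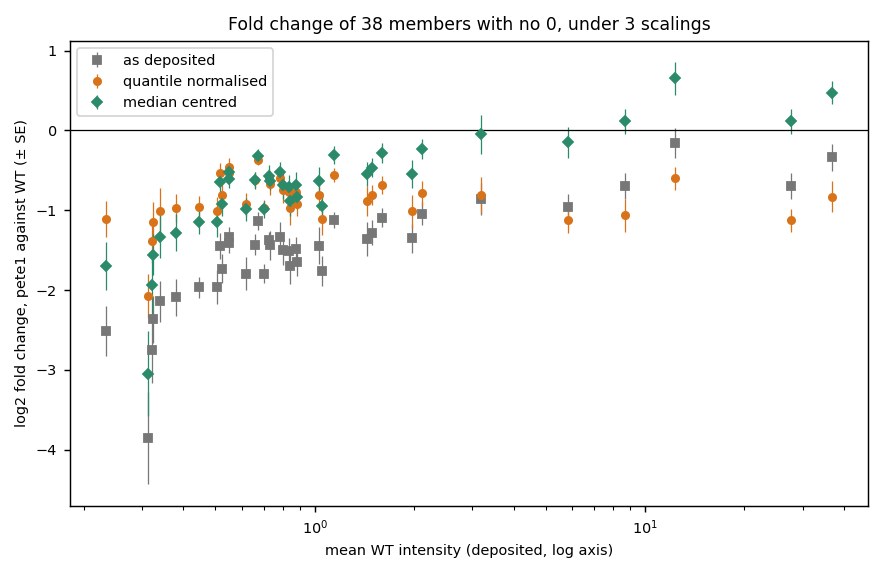
Log2 fold change of the 38 members with no value of 0 (pete1 against WT, ± SE of the limma fit) against their mean WT intensity on a log axis, as deposited (squares), quantile normalised (circles) and median centred (diamonds). The 4 diamonds above 0 are CCL, AT2G27290, AT4G19900 and AT4G17070. Each SE treats the samples of a genotype as independent, although consecutive numbers were alike.

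In a limma fit over all 3439 probes, 39 of the 40 members passed an adjusted p of 0.05 as lower in pete1, as did 11.0% of all probes. The member that did not was AT2G21720, with its 2 zeros. Because the members were chosen on this contrast, these calls are no separate support for them. Without numbers 1 and 2, 24 of 40 passed, against 6.75% of all probes, without numbers 3 and 4, 29 passed, against 11.3%, and without numbers 5 and 6, 32 passed, against 8.90%. Without pete1 1 and 2 it was 35, against 7.97%. With the sample number as a block, 33 of 40 passed, against 10.6% of all probes. With consecutive numbers as a random block 12 passed, against 1.98%, and with averages of consecutive numbers none did, against 0.204%. In those averages, 563 of the 3439 probes had an unadjusted limma p under 0.05, counting lower and higher probes together. After median centring 30 members passed as lower, against 10.4%, and CCL and AT2G27290 passed as higher in pete1, against 19.3%.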

How the data were processed

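The authors deposited linear intensities, with a single value for each probe in a sample. For their background correction and scaling, the sources used here give no account. The values have means near 1, zeros in every sample and a cap of 100. Precision is limited by having 6 samples a genotype, which are not fully independent. The correlation of consecutive numbers that limma estimated over all probes was 0.811. The platform annotation named the probes, updated through RefSeq's table for TAIR10.1, where 690 of 692 matched. No coordinates are given, since no build is named for the values. The members and all lists were chosen with earlier results of these data known. The tables hold no gene descriptions, so 13 planned gene classes, searched by words, found no member, and promoter motifs were not analysed.

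Ranks were taken within each sample over 3439 probes. Log2(intensity + 4.74e-05) values, the offset being the smallest positive intensity, were quantile normalised and fitted with limma 3.58.1 (lmFit, eBayes; R 4.3.3, statmod 1.5.0), with p-values adjusted over all probes by Benjamini-Hochberg. The fit and the rule were tested on simulated data in which all samples were independent. That test does not cover the likeness of consecutive numbers seen here. Equal-numbered WT and pete1 samples deviated together from their genotype's mean (correlations of 0.221 to 0.452 in the 6 pairs). Samples of unequal number were not compared in this way, so whether the shared numbers in the titles pair the samples is not settled. Alternatives included the number as a replicate block and varied scaling, offset, ties, filters, samples and probe ranges. Genes given by their lowest, median and highest values or by sample were the 12 members with the largest gap in rank, the 6 brightest in WT and any listed at 0 in at least 4 pete1 samples. The 3 nearest the limit on either side were given by their gap.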

Additional observations from a re-analysis of the deposited data

Results flagged for a closer look

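Each member was checked in each genotype for 1 sample far from the other 5, and 2 of 80 such groups were picked out. AT2G46190 was at 0.0617 in pete1 2, with the other pete1 samples between 0 and 0.0112. AT4G18540 was at 0.0918 in pete1 5, with the others between 0.0185 and 0.0458. Chance picks out about 1 group in 20 where the 6 values are independent, and consecutive numbers here were alike.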

How the results depend on the processing

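The count of 46 probes with 1 gene that met the rule was 245 in the deposited intensities. It was 84 with averages of consecutive numbers, and 90, 113 and 114 without numbers 1 and 2, 3 and 4, or 5 and 6, where fewer samples make the rule easier to meet. With the replicate block, read as a lower rank in pete1 within each of the 6 equal-numbered pairs, the count was 113, since pairs are a looser rule. Leaving out 1 sample gave 46 to 56, and the other alternatives 37 to 68. The 39 members past limma became 12 with consecutive numbers as a random block, 0 in their averages (563 of 3439 probes had an unadjusted limma p under 0.05) and 24 without numbers 1 and 2; the cause was not tested. With the sample number as a block it was 33, and 37 to 39 without 1 sample. The members' median rank difference of -15.62 was -16.74 to -14.98 without 1 sample. The 18 genes given in full were chosen on this contrast, and blocks and averages leave their fold as it is. In the other 378 alternatives the sign turned in 4, all after median centring, to 0.65 for CCL, 0.476 for AT2G27290, 0.12 for AT4G19900 and 0.11 for AT4G17070. Signal over background was not analysed here.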
